A study of Homo sapiens with 12 samples.

Results

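The short arm of human chromosome 19 carries, at band 19p12 and its edge, a run of neighbouring KRAB zinc finger genes, of which 31 were listed for the description given here. The list was chosen as the KRAB zinc finger genes that neighbour one another there, and it was selected on the measured genotype differences of ZNF675, whose level differed in opposite directions in a pair of colorectal cancer cell lines. Of these 31 genes, 29 had an array probe set that names no other gene, out of 18377 genes measured in that way. ZNF98 was named only by a probe set shared with ZNF492 and ZNF85, and ZNF66 was named by none.

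KRAB zinc finger proteins bind DNA through arrays of zinc fingers and carry a KRAB domain that recruits the corepressor TRIM28 (KAP1). TRIM28 in turn brings in the histone methyltransferase SETDB1 and heterochromatin proteins, and many targets of the family are retrotransposons. The family has grown by tandem gene duplication, so that related genes lie side by side in clusters, of which 19p12 is a primate-expanded example.

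Transcript levels were measured on Affymetrix human gene arrays in cells derived from HCT116 and DLD1, colorectal cancer lines whose PI3K, the lipid kinase upstream of AKT, is made active by a heterozygous mutation of its catalytic subunit. HCT116 wild-type-only cells had lost the mutant allele and HCT116 mutant-only cells had lost the wild-type allele, and the same held for the DLD1 pair, whose mutation is a different one. All 4 groups were kept for 19 h in 0.5% serum, and each had 3 arrays that the labels call biological replicates. Each genotype of a line was 1 gene-targeted derivative, so genotype cannot be told apart from differences between derivatives. Every value below is a log2 signal, or a difference of log2 signals with the standard error (SE) of a limma model fitted to all genes, and a gene was called at an adjusted p under 0.05.

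The array medians lay between 7.42 and 7.53. Of 10 colorectal epithelial markers, EPCAM averaged 12.43 and KRT8 13.26 over all arrays, while VIL1 averaged 6.73, and CDH17 averaged 5.59 in both HCT116 groups against 10.51 and 11.11 in DLD1. Markers of other cell types ranged from 4.94 for LUM to 8.51 for COL1A1, with the leukocyte gene PTPRC at 5.04. Their list means differed little between groups: the 3 measured leukocyte markers averaged 6.03 to 6.07. No detection call was used here, so a low signal gives no evidence of whether a transcript was present.

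The sequences just upstream of these genes were themselves alike. RefSeq promoter windows of 300 bases on GRCh38.p14, each spanning the start of its gene, were matched for 25 of the 31 genes. Over all 300 pairs of these windows the median identity was 79.5%, with a range from 52.4% to 91.0%. The 8 letters TCCAATCA, or TGATTGGA on the other strand, stood in 25 of 25 windows, against 438 of 27305 promoters of all genes (1.6%). They were found by searching all 8-letter words in these windows, so the count is a description of the cluster. The letters hold the CCAAT box, which is the binding motif of the factor NF-Y and was itself found in 35.7% of all promoters. In the windows of 2 other chromosome 19 groups, TCCAATCA stood in 18 of 35 for the 19p13.2 clusters and in 0 of 26 for the 19q13.12 cluster. CCGGAAG, or CTTCCGG on the other strand, the core of an ETS-type motif, stood in 17 of 25 windows against 10.6% of all promoters. GGGCGG, or CCGCCC, stood in 18 of 25 against 44.5%, and TATAAA, or TTTATA, in 3 of 25 against 12%.

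Windows of 6 genes are printed as examples chosen by their expression values, and no link between sequence and expression was tested. ZNF430, ZNF714 and ZNF431 are successive neighbours with high promoter identity and unlike genotype changes. ZNF91 and ZNF675 are neighbours that were both lower in DLD1 mutant-only cells, by unlike amounts. In HCT116 only ZNF675 of this pair separated by genotype. ZNF726 gave a low signal on every array. Capitals mark TCCAATCA and CCGGAAG or their reverse complements, and each window is written 5′ to 3′ on the strand of its gene. They lie at chr19:21020407-21020706 (plus strand) for ZNF430, chr19:21081953-21082252 (plus) for ZNF714, chr19:21141790-21142089 (plus) for ZNF431, chr19:23395422-23395721 (minus) for ZNF91, chr19:23687163-23687462 (minus) for ZNF675 and chr19:23914636-23914935 (plus) for ZNF726.
ZNF430: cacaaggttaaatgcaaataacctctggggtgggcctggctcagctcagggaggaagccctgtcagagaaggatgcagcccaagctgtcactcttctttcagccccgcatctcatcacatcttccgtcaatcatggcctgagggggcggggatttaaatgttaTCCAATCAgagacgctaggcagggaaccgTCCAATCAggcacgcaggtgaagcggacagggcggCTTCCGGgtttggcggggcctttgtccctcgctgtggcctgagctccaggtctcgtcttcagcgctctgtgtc
ZNF714: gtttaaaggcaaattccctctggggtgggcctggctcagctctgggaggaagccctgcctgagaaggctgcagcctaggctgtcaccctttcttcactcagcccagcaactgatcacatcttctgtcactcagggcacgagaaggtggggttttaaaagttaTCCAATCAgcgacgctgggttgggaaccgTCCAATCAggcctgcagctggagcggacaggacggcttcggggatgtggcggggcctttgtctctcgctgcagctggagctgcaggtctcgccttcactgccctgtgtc
ZNF431: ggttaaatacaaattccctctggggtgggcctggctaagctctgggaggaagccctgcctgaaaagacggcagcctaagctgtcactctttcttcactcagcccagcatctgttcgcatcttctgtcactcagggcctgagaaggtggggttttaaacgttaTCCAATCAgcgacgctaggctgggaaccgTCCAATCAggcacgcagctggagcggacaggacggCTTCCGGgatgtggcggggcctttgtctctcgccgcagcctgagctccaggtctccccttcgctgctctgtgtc
ZNF91: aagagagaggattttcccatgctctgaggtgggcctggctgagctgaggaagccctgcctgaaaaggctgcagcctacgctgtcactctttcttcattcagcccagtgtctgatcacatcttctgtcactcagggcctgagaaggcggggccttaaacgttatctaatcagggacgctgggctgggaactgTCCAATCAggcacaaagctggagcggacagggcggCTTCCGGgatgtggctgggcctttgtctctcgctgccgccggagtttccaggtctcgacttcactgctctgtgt
ZNF675: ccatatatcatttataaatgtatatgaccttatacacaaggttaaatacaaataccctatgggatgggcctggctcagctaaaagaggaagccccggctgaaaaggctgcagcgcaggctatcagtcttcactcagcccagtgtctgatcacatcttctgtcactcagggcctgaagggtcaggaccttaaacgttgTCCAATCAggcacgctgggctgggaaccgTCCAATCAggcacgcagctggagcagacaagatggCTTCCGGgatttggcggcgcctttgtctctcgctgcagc
ZNF726: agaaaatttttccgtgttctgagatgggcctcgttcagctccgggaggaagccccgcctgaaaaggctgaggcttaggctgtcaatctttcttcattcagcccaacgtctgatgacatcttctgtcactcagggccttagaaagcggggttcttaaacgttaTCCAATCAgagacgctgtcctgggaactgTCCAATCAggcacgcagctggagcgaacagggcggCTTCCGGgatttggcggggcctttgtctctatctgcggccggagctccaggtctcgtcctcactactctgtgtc

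ZNF714 and ZNF431 shared 91.0% of these letters, the highest identity of any pair, and both carried 2 copies of TCCAATCA, as did ZNF430, ZNF675 and ZNF726. ZNF430 was 83.3% identical to ZNF714 and 85.7% to ZNF431. ZNF714 lacked CCGGAAG, which the other 5 printed windows carried. ZNF726 was 85.7% identical to ZNF91, although their probe sets gave very different signals. Promoter identity had a median of 80.0% among genes whose probe sets averaged 6 or more and 78.8% among genes below 6, and the median number of CpG dinucleotides was 10.0 in both sets. A letter match is not evidence of a binding site.

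The 29 probe sets fell into a dim set and a brighter set, divided at a mean signal of 6 after the values were seen. The 16 dim probe sets averaged 4.91 to 5.77, and all of their array values lay between 4.88 and 5.85. They were those of ZNF506, ZNF253, ZNF93, ZNF682, ZNF90, ZNF486, ZNF626, ZNF429, ZNF43, ZNF208, ZNF257, ZNF676, ZNF492, ZNF99, ZNF681 and ZNF726. The 13 brighter probe sets averaged 6.63 to 9.18. Probe sets differ in how strongly they bind, so these signals do not rank the genes by transcript abundance. Along the chromosome the dim probe sets formed runs: from ZNF506 to ZNF626, and again from ZNF43 to ZNF99. Between those runs, from ZNF85 to ZNF100, 8 of 9 measured genes were bright and ZNF429 was dim.

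**Figure D1:**
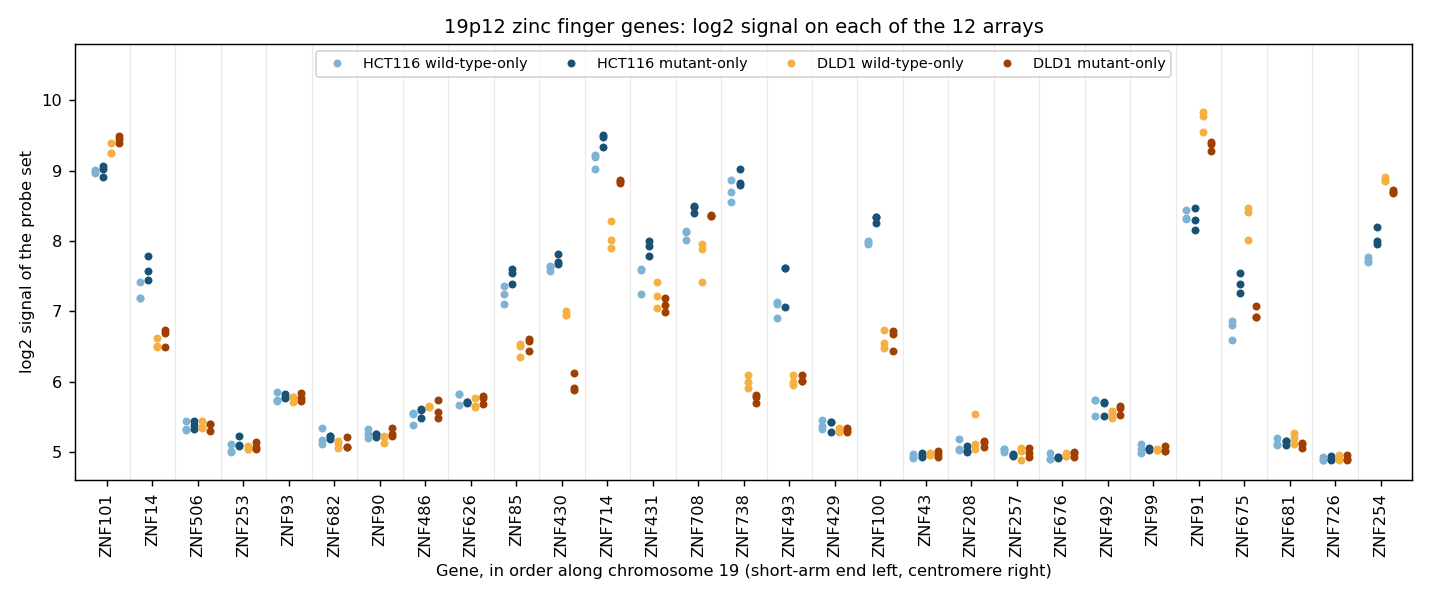
Log2 signal (vertical axis) of the 29 genes in chromosomal order (horizontal axis), with 1 point per array and 3 arrays for each of the 4 groups, coloured by group. The 16 dim probe sets lie between 4.88 and 5.85 on all 12 arrays, while the 13 brighter ones separate the lines or genotypes to differing degrees.

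Dim members barely moved. On the probe sets used in the fit, their largest absolute genotype change was 0.0932 in HCT116 and 0.0987 in DLD1. Their largest mean difference between lines was 0.119, and none of the 16 was called in any contrast of the reported fit. Some alternative fits called a few of them. ZNF93, which in human cells binds and represses L1 retrotransposons, was among them. It read 5.73, 5.85 and 5.72 in HCT116 wild-type-only cells, 5.78, 5.82 and 5.77 in HCT116 mutant-only cells, 5.77, 5.70 and 5.77 in DLD1 wild-type-only cells and 5.76, 5.84 and 5.72 in DLD1 mutant-only cells. All 4 groups overlapped.

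ZNF257 read 5.04, 5.0 and 5.04 in HCT116 wild-type-only cells and 4.96, 4.97 and 4.94 in mutant-only cells, and 4.88, 5.01 and 5.05 against 4.93, 4.99 and 5.06 in DLD1. The HCT116 groups did not overlap, at a difference of only -0.07 ± 0.0542 (SE). ZNF626 read 5.82, 5.66 and 5.82 against 5.71, 5.70 and 5.70 in HCT116, and 5.77, 5.64 and 5.65 against 5.76, 5.68 and 5.80 in DLD1. A second, dimmer probe set of ZNF626 was below 5 on all arrays. In HCT116 it read 4.721, 4.718 and 4.797 against 4.898, 4.864 and 4.841, higher in mutant-only cells without overlap. The brighter probe set did not show that rise. In DLD1 the second probe set read 4.932, 4.885 and 4.858 against 4.979, 4.995 and 4.78, with overlap. ZNF208 read 5.03, 5.18 and 5.04 against 5.09, 5.01 and 4.99 in HCT116, and 5.54, 5.11 and 5.03 against 5.16, 5.14 and 5.08 in DLD1. On the probe sets used in the fit, the genotypes of both genes overlapped in both lines. For ZNF208, 1 DLD1 wild-type-only array stood above its other 11.

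Which members differed between genotypes was part of how the list was chosen, so the genotype values that follow are a description without a test. ZNF675 led in both lines and in opposite directions. Its protein is known in human and mouse cells as an inhibitor of TRAF6 signalling to NF-kB. ZNF675 read 6.59, 6.80 and 6.86 in HCT116 wild-type-only cells and 7.39, 7.54 and 7.25 in HCT116 mutant-only cells. In DLD1 it read 8.47, 8.42 and 8.02 in wild-type-only cells and 6.92, 6.92 and 7.07 in mutant-only cells. The mutant-only arrays were all higher in HCT116 and all lower in DLD1, with changes of 0.64 ± 0.114 and -1.33 ± 0.114, so that the wild-type-only groups lay far apart and the mutant-only groups close together.

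ZNF430 read 7.65, 7.57 and 7.63 in HCT116 wild-type-only cells and 7.82, 7.68 and 7.70 in mutant-only cells, and in DLD1 it read 7.01, 6.95 and 6.94 against 6.13, 5.88 and 5.91. The change was small and positive in HCT116 (0.12 ± 0.0671) and was a 1.99-fold lower level in DLD1 mutant-only cells (-1.0 ± 0.0671), and the genotypes overlapped in neither line. ZNF254 read 7.70, 7.72 and 7.76 against 8.0, 8.20 and 7.95 in HCT116, and 8.88, 8.90 and 8.85 against 8.70, 8.68 and 8.73 in DLD1. Here too the arrays separated in both lines and in opposite directions, at 0.32 ± 0.0612 and -0.18 ± 0.0612. ZNF675, ZNF430 and ZNF254 were the 3 of 29 members with such opposite separation, against 3.21% of all genes.

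Immediately beside ZNF430, ZNF714 was higher in the mutant-only cells of both lines. It read 9.02, 9.23 and 9.20 against 9.34, 9.47 and 9.51 in HCT116, and 8.01, 7.91 and 8.29 against 8.86, 8.85 and 8.82 in DLD1. The changes were 0.29 ± 0.0879 and 0.78 ± 0.0879, without overlap in either line. ZNF708 read 8.14, 8.13 and 8.02 against 8.49, 8.50 and 8.39 in HCT116, and 7.96, 7.89 and 7.42 against 8.36, 8.37 and 8.36 in DLD1. Its changes were 0.37 ± 0.107 and 0.61 ± 0.107, and the third DLD1 wild-type-only array lay well below the other two. ZNF431, between ZNF714 and ZNF708, read 7.25, 7.60 and 7.59 against 7.93, 8.0 and 7.79 in HCT116, and 7.22, 7.42 and 7.05 against 6.99, 7.09 and 7.19 in DLD1. It was higher without overlap in HCT116 (0.43 ± 0.107), while the DLD1 genotypes overlapped (-0.14 ± 0.107).

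**Figure D2:**
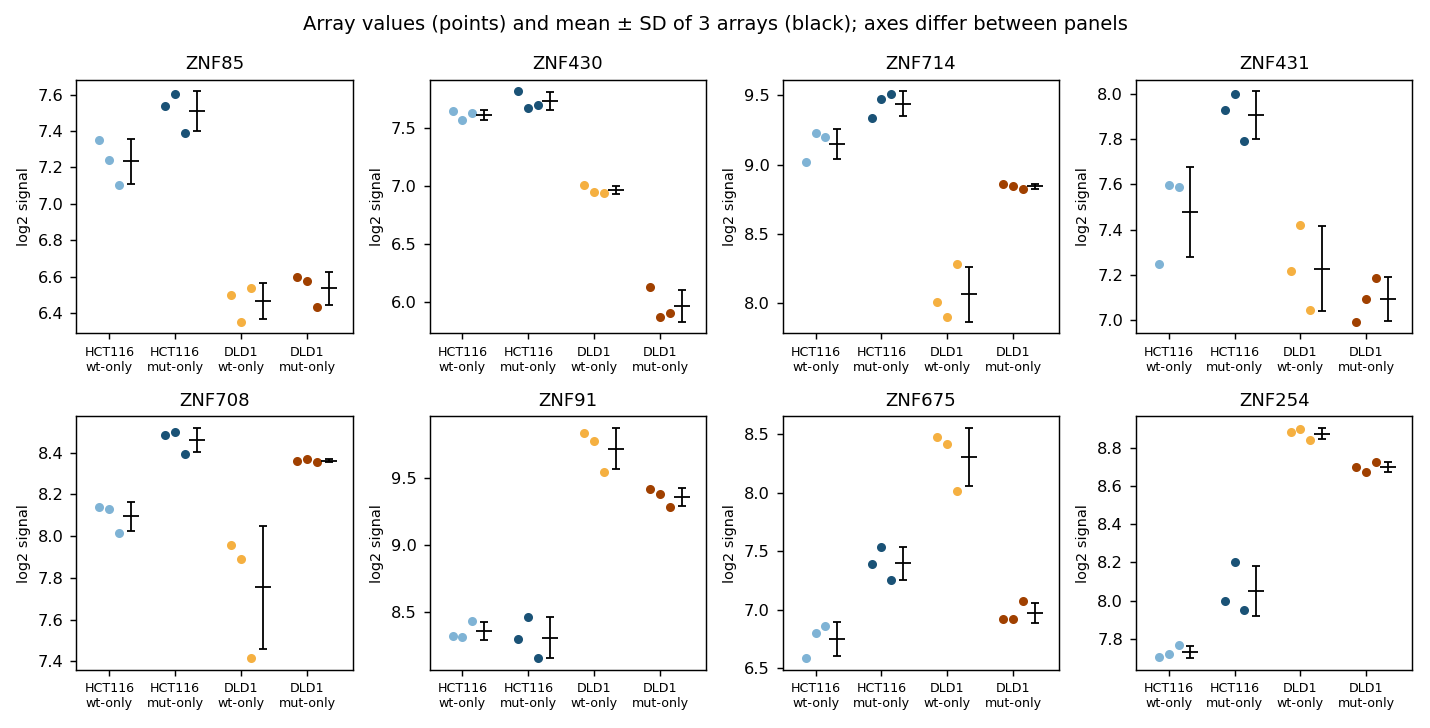
Log2 signal (vertical axes, each panel with its own range) of 8 members in the 4 groups (horizontal axes), with 1 point per array and the mean ± SD of 3 arrays in black. ZNF675, ZNF430 and ZNF254 move in opposite directions between genotypes in the lines, ZNF714 and ZNF708 are higher in mutant-only cells of both, and ZNF85 separates mainly by line.

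ZNF91, which in human cells represses SVA retrotransposons, separated by genotype in DLD1. It read 8.32, 8.31 and 8.43 against 8.30, 8.46 and 8.16 in HCT116, and 9.83, 9.78 and 9.54 against 9.41, 9.38 and 9.28 in DLD1. The HCT116 genotypes overlapped (-0.05 ± 0.0857) and the DLD1 mutant-only arrays were all lower (-0.36 ± 0.0857). ZNF738 read 8.70, 8.87 and 8.55 against 9.02, 8.79 and 8.82 in HCT116, and 6.0, 5.91 and 6.09 against 5.80, 5.69 and 5.79 in DLD1. Its genotypes overlapped in HCT116 and separated in DLD1 at -0.24 ± 0.0838, a change far smaller than the gap between its lines.

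ZNF493 read 7.10, 7.12 and 6.90 against 7.61, 7.62 and 7.06 in HCT116, and 6.10, 5.95 and 5.99 against 6.0, 6.0 and 6.09 in DLD1. Its HCT116 change of 0.39 ± 0.12 rested on arrays that overlapped, since the third mutant-only array stood below the other two. ZNF14 read 7.19, 7.19 and 7.42 against 7.79, 7.57 and 7.45 in HCT116, and 6.62, 6.51 and 6.49 against 6.74, 6.48 and 6.69 in DLD1. ZNF100 read 7.98, 7.96 and 8.0 against 8.26, 8.33 and 8.33 in HCT116, and 6.74, 6.47 and 6.55 against 6.68, 6.43 and 6.72 in DLD1. Both were 0.33 higher in HCT116 mutant-only cells without overlap and overlapped in DLD1. ZNF85 read 7.35, 7.24 and 7.10 against 7.54, 7.60 and 7.39 in HCT116, and 6.50, 6.35 and 6.54 against 6.60, 6.58 and 6.43 in DLD1. It showed the same arrangement, at 0.28 ± 0.0796 and 0.07 ± 0.0796. ZNF101 read 8.96, 9.0 and 8.98 against 9.07, 8.90 and 9.02 in HCT116, and 9.40, 9.24 and 9.25 against 9.49, 9.39 and 9.45 in DLD1. Its genotypes overlapped in both lines.

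**Figure D3:**
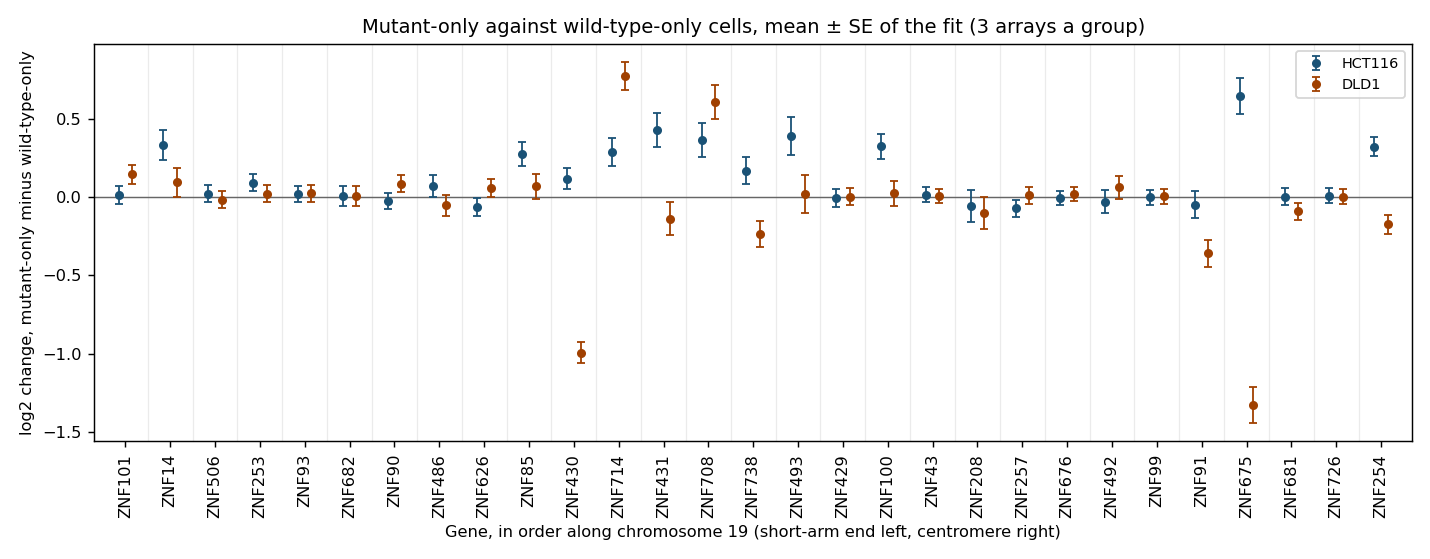
Log2 change, mutant-only minus wild-type-only (vertical axis), of each gene in chromosomal order (horizontal axis), as the fitted value ± SE from 3 arrays a group, for HCT116 and DLD1. HCT116 changes of the brighter genes are nearly all above 0, whereas DLD1 changes run from -1.33 for ZNF675 to 0.78 for ZNF714.

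In HCT116, 4 of the 29 members were called higher (ZNF431, ZNF100, ZNF675 and ZNF254) and none lower, which is 13.8% against 6.16% of all genes (4.02% higher and 2.14% lower). In DLD1, ZNF714 and ZNF708 were called higher and ZNF430, ZNF91 and ZNF675 lower, which is 17.2% against 8.77% (5.66% higher and 3.11% lower). Between the lines the change itself was called different for 5 members, against 7.11% of all genes (3.68% higher and 3.43% lower): higher in HCT116 for ZNF430, ZNF431, ZNF675 and ZNF254, and lower for ZNF714. Nothing is read from these counts, because the list was chosen with them known. The calls of ZNF100 and ZNF431 in HCT116, and of ZNF91 in DLD1, were each lost when some single arrays were left out. With the replicate number as a block, 9 members were called in HCT116, adding ZNF14, ZNF85, ZNF714, ZNF708 and ZNF493, and 8 in the difference, adding ZNF738, ZNF493 and ZNF100. The genotypes did not overlap for 10 of 29 members in HCT116, against 22% of all genes, and for 8 in DLD1, against 28.3%. The median change over the members was 0.021 in HCT116 and 0.00676 in DLD1, beside -0.00104 and -0.00715 over all genes. Among the 13 brighter members, 12 had a change above 0 in HCT116 and 7 in DLD1, with medians of 0.321 and 0.0209.

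The list was selected on genotype differences and not on the comparison of HCT116 with DLD1, although earlier results of these data were known. Of the contrasts between lines, only the mean over both genotypes is uncorrelated by design with the genotype changes. It still comes from the same arrays and uses the same estimate of the spread, and its adjusted p-values are given with that limit. By that mean 13 members differed between the lines, 9 higher and 4 lower in HCT116. That is 44.8% of the 29 measured members, against 58% of all genes (28.4% higher and 29.6% lower). The 13 were those with the brighter probe sets, but the division at 6 uses the mean over both lines, and ZNF738, at 6.0 and 5.76 in the DLD1 groups, passed it through its HCT116 signal, so nothing is read from that match. Along the chromosome, 8 of the 9 measured genes from ZNF85 to ZNF100 were called higher in HCT116, and dim ZNF429 was not called. Among the 8, the call of ZNF708 depended on the normalization. At the centromere-side end ZNF91, ZNF675 and ZNF254 were lower, ZNF675 in wild-type-only cells alone, while dim ZNF681 and ZNF726 were not called. At the other end the neighbours ZNF101 and ZNF14 went opposite ways, and no test of position was run.

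ZNF738 had the largest difference, 2.91 ± 0.0592, which is 7.54-fold higher in HCT116 (limma, adjusted p = 3.69e-14). Its 6 HCT116 arrays lay between 8.55 and 9.02 and its 6 DLD1 arrays between 5.69 and 6.09. ZNF100 was higher by 1.55 ± 0.0563 (limma, adjusted p = 1.6e-11), ZNF430 by 1.21 ± 0.0475 (limma, adjusted p = 3.72e-11) and ZNF493 by 1.21 ± 0.0849 (limma, adjusted p = 1.73e-08). ZNF85 was higher by 0.87 ± 0.0563 (limma, adjusted p = 7.53e-09), ZNF14 by 0.84 ± 0.0665 (limma, adjusted p = 6.16e-08) and ZNF714 by 0.84 ± 0.0622 (limma, adjusted p = 3.2e-08). For these 7 genes all HCT116 arrays exceeded all DLD1 arrays. ZNF431 was higher by 0.53 ± 0.0755 (limma, adjusted p = 2.64e-05). The weakest call was that of ZNF708, at 0.22 ± 0.0754 (limma, adjusted p = 0.0223), and it was lost under quantile normalization (adjusted p = 0.0566), median centring (0.0589) and cyclic loess (0.0671).

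ZNF91 was lower in HCT116 by the largest amount in that direction, -1.21 ± 0.0606, or 2.31-fold (limma, adjusted p = 5e-10). ZNF254 was lower at -0.90 ± 0.0433 (limma, adjusted p = 3.07e-10) and ZNF101 at -0.38 ± 0.0416 (limma, adjusted p = 1.95e-06). In ZNF91, ZNF254 and ZNF101 all HCT116 arrays lay below all DLD1 arrays. Such separation of the lines held for 10 of the 29 members, against 39% of all genes. ZNF675 was lower on average, at -0.56 ± 0.0804 (limma, adjusted p = 2.77e-05), but the mean joins -1.55 ± 0.114 in wild-type-only cells and 0.42 ± 0.114 in mutant-only cells. Its order between the lines therefore turned with genotype. ZNF208, the fifth lowest member, differed by -0.12 ± 0.0719 (limma, adjusted p = 0.181).

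**Figure D4:**
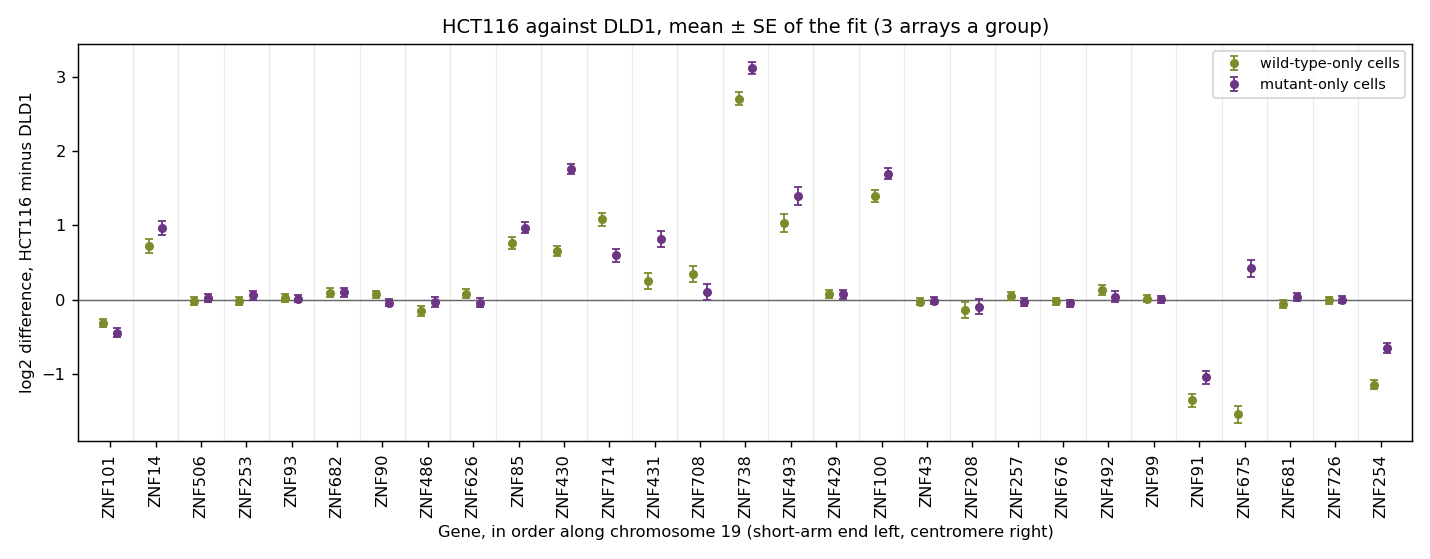
Log2 difference, HCT116 minus DLD1 (vertical axis), of each gene in chromosomal order (horizontal axis), as the fitted value ± SE from 3 arrays a group, for wild-type-only and mutant-only cells. Genes from ZNF85 to ZNF100 lie above 0, with dim ZNF429 close to it and not called, ZNF91 and ZNF254 lie below 0 in both genotypes, and ZNF675 changes sign.

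Within wild-type-only cells 12 of 29 members were called, 8 higher and 4 lower in HCT116 (41.4% against 48.8% of all genes, 23.3% higher and 25.5% lower), and within mutant-only cells 12 were called, 9 higher and 3 lower (41.4% against 50.6%, 24.3% higher and 26.3% lower). In mutant-only cells the lines also differ by mutation, which cannot be told apart from the line. Unlike the mean, the contrasts within a single genotype are correlated by design with the genotype changes known when the list was chosen. Their calls and adjusted p-values are therefore given as a description. ZNF738 differed by 2.71 ± 0.0838 and 3.12 ± 0.0838, and ZNF91 by -1.36 ± 0.0857 and -1.05 ± 0.0857, in wild-type-only and mutant-only cells. ZNF430 differed by 0.65 ± 0.0671 and 1.76 ± 0.0671. ZNF431 was not called in wild-type-only cells (0.25 ± 0.107, limma, adjusted p = 0.0705), and ZNF708 was not called in mutant-only cells (0.10 ± 0.107, limma, adjusted p = 0.491). The epithelial markers CDH17 and CDH1 also differed between the lines, by -5.22 and -1.73 on the same scale, and their part in the zinc finger differences was not tested.

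Neighbours shared the direction of change more often than other pairs in HCT116 and in the mean difference between lines, but not in DLD1. Of 28 pairs of measured members that follow one another, 13 (46.4%) had genotype changes of one sign in DLD1, against 53.7% of pairs 2 or more places apart. In HCT116 it was 20 pairs (71.4%) against 54.5%, and in the mean difference between lines 20 (71.4%) against 51.9%. All but 8 of the 28 pairs hold a dim member. The largest absolute genotype change of those members was 0.0932 in HCT116 and 0.0987 in DLD1. The sign of so small a change carries little information, so these shares are not read as neighbours moving together or apart. Among the 13 brighter members, 8 pairs lie next to each other with no other measured member between. Of these, 7 shared a sign in HCT116, but so did 84.3% of the other 70 pairs, and 2 shared one in DLD1, against 48.6%. In the mean difference between lines 7 of the 8 shared a sign, against 35 of the other 70 pairs, and their median absolute gap was 0.508 against 1.29. The division into brighter and dim members was made after the values were seen. ZNF738, which passed it through its HCT116 signal, is paired with ZNF708 and with ZNF493, and several of the 8 pairs share a gene. Nothing is therefore read from these 8 pairs.

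The least alike neighbours in their genotype changes were ZNF430 and ZNF714, with absolute gaps summing to 1.94 over both lines, then ZNF675 and ZNF681 (1.88) and ZNF91 and ZNF675 (1.66). The most alike were ZNF93 and ZNF682 (0.0305), ZNF676 and ZNF492 (0.0651) and ZNF257 and ZNF676 (0.0717), all of them dim. ZNF91 and ZNF675 were nevertheless both lower in DLD1 mutant-only cells, at -0.36 and -1.33. Deviations from the group means over the 12 arrays correlated between neighbours with a median of 0.14, beside 0.0644 for other pairs. Among neighbours they ran from -0.868 for ZNF208 and ZNF257 to 0.769 for ZNF91 and ZNF675. ZNF208 and ZNF257 are both dim, and 1 array weighs heavily in their value. On DLD1 wild-type-only replicate 1, ZNF208 had its highest reading, 5.538, and ZNF257 its lowest, 4.885. These values share array quality and normalization. Genes are not replicates, so none of these comparisons was tested. Other genes lie between some pairs, among them ZNF724, ZNF728 and ZNF730 between ZNF99 and ZNF91.

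Probe sets that name several genes bear on ZNF430 and ZNF85, and on some of the dim members. Probe set 8027352 names 8 genes, of which ZNF676, ZNF430, ZNF208, ZNF99, ZNF85 and ZNF43 are members, and it read between 12.65 and 13.10 on all arrays. That is far above the probe sets of each of those members alone, and it did not separate lines or genotypes. The other shared probe set, for ZNF98, ZNF492 and ZNF85, read 5.37 to 5.61. With shared probe sets let in, all 6 of these members took the value of the bright one. Among them ZNF676, ZNF208, ZNF99 and ZNF43 belong to the dim run from ZNF43 to ZNF99. Their place among the dim members, and that run, therefore depend on the choice of probe set. ZNF430 and ZNF85 lost their differences between lines (0.0916, limma, adjusted p = 0.387). ZNF430 then also lost its call in DLD1, where its genotype change became -0.0178, and its call in the difference of the genotype changes. Paralogous transcripts can bind one another's probes, and no probe sequences were used here to measure that.

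Genes of the machinery that KRAB proteins act through were looked at beside the cluster. These genes and the groups of the next paragraph were listed with earlier results of these data known. Their counts and adjusted p-values are therefore a description. Of 37 measured genes in a list of KRAB corepressor and heterochromatin genes, 6 rose in HCT116 mutant-only cells and none fell, which is 16.2% against 6.16% of all genes. KDM4A, a histone demethylase, rose by 0.38 ± 0.0583 (limma, adjusted p = 0.00159), ATRX by 0.34 ± 0.0723 (limma, adjusted p = 0.0141) and MORC2 by 0.31 ± 0.0748 (limma, adjusted p = 0.0242). In DLD1, 3 rose and none fell, which is 8.11% and no more than the 8.77% of all genes. The largest of these was TRIM24 at 0.90 ± 0.0591 (limma, adjusted p = 7.61e-07), a relative of TRIM28 that also rose in HCT116 (0.27 ± 0.0591; limma, adjusted p = 0.0156). TRIM28 itself, at 11.94 to 12.13 in the group means, differed by 0.13 ± 0.0547 in HCT116 and 0.02 ± 0.0547 in DLD1 and was not called in either. Between the lines 29 of the 37 differed (78.4% against 58% of all genes), 14 higher and 15 lower in HCT116, led by ZFP57, an imprint-keeping KRAB zinc finger protein, at -3.57 ± 0.0802 (limma, adjusted p = 1.07e-13).

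In other zinc finger groups of chromosome 19 more of the called genes were lower than higher in HCT116. By the mean over genotypes, 2 of 28 genes of the 19q13.12 cluster were higher and 11 lower in HCT116, and 4 of 31 genes of the 19p13.2 clusters were higher and 20 lower, beside 9 higher and 4 lower of the 29 at 19p12. The shares called were 46.4%, 77.4% and 44.8%, against 58% of all genes (28.4% higher and 29.6% lower). The medians were -0.0448, -0.219 and 0.0148, beside 0.00635 over all genes, and no difference between the groups was tested. Between genotypes in HCT116, ZNF566 (1.37 ± 0.11) and ZNF850 (1.13 ± 0.0776) at 19q13.12 and ZNF426 (-1.61 ± 0.0803) and ZNF136 (1.36 ± 0.0919) at 19p13.2 were called and changed by more than any 19p12 gene in that line. Of 17 measured non-zinc-finger genes flanking the cluster, none was called in HCT116 (6.16% of all genes were) and 2 rose in DLD1 (11.8% against 8.77% of all genes), CCNE1 (0.27 ± 0.0688) and GATAD2A (0.19 ± 0.0492), counts too small to set the flanks apart. GATAD2A is also in the corepressor list, where its rise in DLD1 is counted as well.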

How the data were processed

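The members and all gene lists were chosen with earlier results of these data known. The authors deposited log2 values of 28869 probe sets for 12 arrays, and how the probe signals were corrected, summarised and normalized is unstated in the labels and file headers. The authors' deposited tables of clusters past a fold ratio of 2 (35 clusters for one line and 44 for the other) list no member's probe set, although ZNF675 was 2.52-fold lower in DLD1 mutant-only cells in the fit made here; why it is not listed was not tested. Of the probe sets 19310 had 1 symbol, 1752 several and 7807 none. Symbols came from the platform annotation, updated through RefSeq's gene table for GRCh38.p14, which also gave the gene order; the array annotation is on hg19, so no probe coordinates are given.

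For each gene the probe set of its own with the highest mean was used (18377 genes, 685 of them with several). Group means were fitted with limma 3.58.1 in R 4.3.3, with the 12 arrays fitted together (residual degrees of freedom 8, prior 5.17). P-values are two-sided and Benjamini-Hochberg adjusted over all genes, and the threshold was 0.05. The fit was tested on simulated data. No signal-over-background measure was used, and 3 arrays a group limit the precision. Deviations of same-numbered arrays of one line correlated by 0.129 to 0.462 in all 6 pairs, and those of differently numbered arrays by -0.321 to 0.17. The fit reported here did not pair the arrays. A fit with the replicate number within a line as a block was run as an alternative. It is given where it moved a count by more than 1.5 times. Promoters are RefSeq's. A planned comparison of protein sequences was not made. Values on each array are given for ZNF675, ZNF91 and ZNF93, for the 4 highest and 4 lowest genotype changes of each line and for the 5 highest and 5 lowest mean line differences; at most 4 called genes are named per other list. Values of the targeted gene are not reported here.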

Additional observations from a re-analysis of the deposited data

Results flagged for a closer look

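The arrays of 3 members separated by genotype in opposite directions in the lines, and the difference was not tested because the list was chosen with it known. ZNF675 changed by 0.64 in HCT116 and -1.33 in DLD1, ZNF430 by 0.12 and -1.0, and ZNF254 by 0.32 and -0.18.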

How the results depend on the processing

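No called value of a named member changed sign under the alternatives run. Leaving out genes under the 40th percentile of mean signal kept 5 members in the fit, of which 2 were called in HCT116, 3 in DLD1, 2 in the difference, 5 in wild-type-only cells between lines, 4 in mutant-only cells and 5 in the mean of both; fewer members were tested. With the replicate block 9 members were called in HCT116 and 8 in the difference. Array weights gave 7 in HCT116, 9 in DLD1 and 9 in the difference, and 11 higher and 6 lower in the mean between lines. Dim members were among those added by the weights. They were ZNF208 and ZNF681 in DLD1, ZNF208 between lines in wild-type-only cells, and ZNF682, ZNF486, ZNF429 and ZNF208 in the mean. The cause was not tested. The block added ZNF492 to the calls between lines and changed no other call there or in DLD1. Leaving out 1 array at a time gave 2 to 6 called members in HCT116 (2 without mutant-only replicate 1 or 2), 4 to 6 in DLD1, 3 to 6 in the difference (3 without HCT116 mutant-only replicate 1, DLD1 wild-type-only replicate 1 or 2, or DLD1 mutant-only replicate 1 or 2), 12 to 13 between lines in wild-type-only cells, 12 throughout in mutant-only cells and 13 to 15 in their mean. Removing replicate 3 from every group, an alternative chosen after seeing the data, gave 7 called members in the difference and 13 between lines in mutant-only cells, and moved the DLD1 change of ZNF675 to -1.52. The fit of only the 6 arrays compared could not be run for contrasts that use all 4 groups. ZNF100 lost its HCT116 call when any 1 of the 6 HCT116 arrays was removed. ZNF431 lost it on removal of replicate 1 of either genotype or of mutant-only replicate 2. ZNF91 lost its DLD1 call on removal of replicate 1 or 2 among the wild-type-only arrays, or of replicate 3 among the mutant-only ones. ZNF708 lost its call between lines in wild-type-only cells with array weights and on removal of HCT116 wild-type-only replicate 1.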
